A study of Mus musculus with 6 samples.

Results

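Macrophage and myeloid cell genes were followed in RNA from whole pancreatic islets of mice with and without a deletion of Klf4 aimed at alpha cells. The set was a list of 42 macrophage, dendritic cell and granulocyte genes, matched by symbol to a table of 55536 genes, and all 42 were found once each. Both groups came from the C57B1/6J strain as the labels spell it, and both carried Gcg-iCre, a Cre recombinase driven from the glucagon gene and so directed to alpha cells. Control mice were Klf4+/+;Gcg-iCre and knockout mice were Klf4fl/fl;Gcg-iCre, with 3 libraries in each group. Age, sex and the number of animals per library are not given in the sources used here. The p-values therefore measure only the spread between these libraries, which may in part be technical.

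Macrophages are phagocytes that engulf dying cells and microbes. Their lineage is set by the transcription factor PU.1, encoded by Spi1, and their survival depends on the receptor for colony-stimulating factor 1, encoded by Csf1r. Islets hold a resident population of macrophages beside the endocrine cells, and these macrophages carry F4/80, CD11c and class II antigen-presenting molecules. KLF4 is known as a regulator of monocyte and macrophage differentiation, but a glucagon-driven Cre is not directed to those cells. In whole-islet RNA, a change in the number of macrophages and a change in RNA per macrophage cannot be told apart.

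Totals ran from 101277200 to 110243918 counts per library, where a floor of 3 counts equals 0.0272 to 0.0296 CPM, the library-scaled count, and covers counting error only. Low counts were mostly even: 85.9% to 88.2% of counts from 1 to 10 were even numbers in each library. The share was 75.6% to 80.2% for counts from 11 to 100. The counts of the member Mrc1, 128 to 370 per library, were all even too. Fewer independent fragments than counts may therefore lie behind low and middling values. Apart from a fit with halved counts, the standard errors and p-values do not allow for this. Klf4 itself ranged from 2015 to 3148 normalized counts in controls and from 2277 to 2540 in knockouts, with overlapping groups (DESeq2 adjusted p = 0.774, and 0.00568 without control replicate 3). Gene-level counts do not show whether reads came from the floxed part of the gene. Xist ran from 77938 to 108105 normalized counts in control libraries and from 12.4 to 30.2 in knockout libraries, and the Y-linked gene Ddx3y had 0 counts in every control library and 5599 to 6265 normalized counts in knockouts. These sex-linked transcripts divided the libraries exactly as genotype did, so sex and genotype cannot be told apart in any comparison here. On the first principal component of 15811 genes, knockout replicate 1 stood at 62.5, knockout replicates 2 and 3 at 20.2 and -7.00, and the controls between -25.8 and -24.3. Log2 fold changes below are over all 6 libraries, and the value without knockout replicate 1 follows where leaving it out moved a member by over 1.5 times or ended a call.

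Defining macrophage genes were detected in every control library. Levels between genes were compared as normalized counts per kilobase of merged exons, where normalized means divided by the size factor of the library. Apoe, a lipid carrier made by macrophages and by several other cell types, was far above the rest at 9181 ± 836 per kilobase (SD, n = 3 controls). It made up 47.1% to 55.4% of the summed normalized counts of all 42 genes in each library. The next 5 genes were Axl (733 ± 41.8), a receptor for dying cells, the signalling adaptor Fcer1g (702 ± 140), lysozyme Lyz2 (626 ± 49.1), the adaptor Tyrobp (599 ± 102) and the pore-forming protein Mpeg1 (581 ± 17.1), and the ranges of each neighbouring pair among these 5 overlapped. Laptm5, a lysosomal membrane protein of blood cells, followed at 427 ± 23.4 per kilobase, Cd68 at 364 ± 32.4 and Csf1r at 329.9 ± 15.3. The F4/80 gene Adgre1 (135 ± 27.1) and the CD11c gene Itgax (137 ± 12.8) stood at similar levels with overlapping ranges. Spi1 stood at 67.1 ± 14.7 per kilobase.

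**Figure D1:**
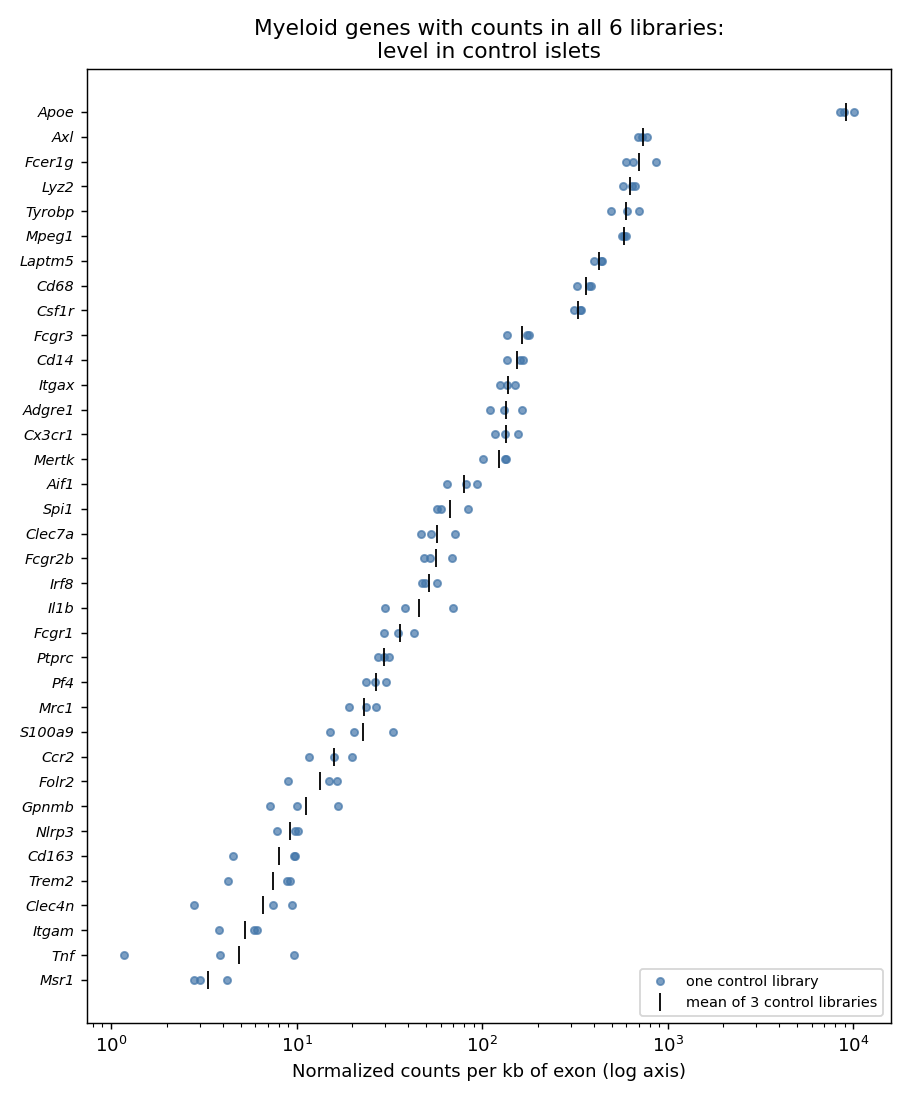
Normalized counts per kilobase of exon (log axis) in the 3 control libraries, one row for each of the 36 genes with counts in all 6 libraries; points are libraries and ticks their means. Apoe stands apart at the top at 9181 per kilobase, and Msr1 is lowest at 3.35.

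Several members were close to absent. Il10 was listed at 0 in 5 libraries with 2 counts in knockout replicate 2, and Retnla had 6 counts in control replicate 1, 2 in knockout replicate 2 and 0 elsewhere. The granulocyte genes S100a8 and S100a9 had 0 to 12 and 4 to 20 counts per library, Il6 had 0 to 6, and Tnf 2 to 16. Lyz1, a neighbour of Lyz2 with a near-identical coding sequence, had 0 to 19 counts, and its reads may be split uncertainly between the copies. Of the 42 genes, 40 had at least 10 counts in total and entered the fit, and 33 of these were given an adjusted p-value. The other 7 (Clec4n, Tnf, Il6, Lyz1, S100a8, S100a9 and Marco) had a fold change but no adjusted p-value.

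Between genotypes, 2 of the 33 genes rose in knockout islets and none fell at a DESeq2 adjusted p of 0.05. Both encode proteins of phagocytic macrophages: Mrc1, the mannose receptor CD206, and Cd68, a lysosomal glycoprotein. Over all 17797 genes given an adjusted p-value, 2.19% passed in either direction, 1.53% with a higher and 0.657% with a lower level in knockout. Without control replicate 3, 25 of the 33 were still given an adjusted p-value and 3 of these passed, Fcer1g being added, against 6.28% of all genes. The edgeR quasi-likelihood test called 0 members and 0.115% of the 25210 genes in its fit. There 10 of the 33 (30.3%) had an unadjusted p under 0.05 with a higher level, against 5.71% of the 25210. Unlike the 33, those 25210 include low-count genes without a DESeq2 adjusted p-value. With a lower level there was 1 of the 33, and the share of all genes was not computed.

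Mrc1 (ENSMUSG00000026712, chromosome 2, 14229392 to 14332057, plus strand, GRCm38) measured 171, 123 and 151 normalized counts in the controls, in replicate order, and 349, 223 and 245 in the knockouts. Every knockout library was above every control. The log2 fold change was 0.88 ± 0.25 (SE), a 1.84-fold difference with a 95% confidence interval of 1.32 to 2.58 (DESeq2 adjusted p = 0.0225, edgeR adjusted p = 0.269). Without knockout replicate 1 it was 0.66 and did not pass (DESeq2 adjusted p = 0.368), nor did it pass without control replicate 2 (adjusted p = 0.194) or knockout replicate 3 (adjusted p = 0.0742).

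Cd68 (ENSMUSG00000018774, chromosome 11, 69664213 to 69666153, minus strand) stood at 411, 486 and 475 normalized counts in controls and at 757, 555 and 668 in knockouts. Here too the groups did not overlap. The log2 fold change was 0.53 ± 0.16 (SE), or 1.44-fold with an interval of 1.16 to 1.79 (DESeq2 adjusted p = 0.0416, edgeR adjusted p = 0.314). Among the settings without a replicate block, the call was lost in edgeR, without independent filtering, with halved counts, and when any library but control replicate 3 or knockout replicate 2 was left out; without knockout replicate 1 the value was 0.42 (adjusted p = 0.456).

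The promoters of these 2 genes are shown because they were the only members past the threshold. Each stretch holds 250 bases before and 50 bases after a RefSeq transcription start, from the RefSeq promoter table of build GRCm38.p6, at chr2:14229164-14229463 (plus strand) for Mrc1 and chr11:69666121-69666420 (minus strand) for Cd68. Capitals mark the PU box GAGGAA, the core letters bound by PU.1, or its reverse complement.
Mrc1: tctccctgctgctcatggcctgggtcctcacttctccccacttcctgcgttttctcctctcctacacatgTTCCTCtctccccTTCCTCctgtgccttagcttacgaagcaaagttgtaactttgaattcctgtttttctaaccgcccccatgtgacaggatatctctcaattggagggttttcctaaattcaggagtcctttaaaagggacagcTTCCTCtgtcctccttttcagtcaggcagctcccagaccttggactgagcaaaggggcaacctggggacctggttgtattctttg
Cd68: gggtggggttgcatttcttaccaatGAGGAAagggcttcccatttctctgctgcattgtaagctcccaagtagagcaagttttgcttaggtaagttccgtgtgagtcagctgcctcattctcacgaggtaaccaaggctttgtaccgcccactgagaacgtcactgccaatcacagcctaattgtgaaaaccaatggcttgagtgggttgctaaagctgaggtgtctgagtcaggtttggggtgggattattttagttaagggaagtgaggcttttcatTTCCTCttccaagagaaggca
The Mrc1 stretch held 3 such matches, all on the opposite strand, and the Cd68 stretch 2, one on each strand. A table entry was found for 34 of the 42 genes; Cd14, Msr1, Tyrobp, Il10, Csf1r, Clec4n, Adgre1 and Spi1 had none. On either strand GAGGAA was present for 18 of the 34 genes (52.9%), against 31.3% of all 27025 genes in the table. The longer GAGGAAGT, which contains it, was present for 3 of the 34 (8.82%), Pf4, Retnla and S100a8, against 3.69%. The KLF-type letters GGGTGTGG or GGGCGTGG were found in 0 of the 34 and in 9.75% of all genes. These are matches of letters in a short window and not binding sites.

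Most of the 33 members, Mrc1 and Cd68 included, had a positive log2 fold change, and 31 did not pass the test. The log2 fold change was above 0 for 27 of the 33 genes (81.8%), against 48.4% of all genes tested, and the median was 0.30 against -0.01 over all genes. In 14 of the 33 (42.4%) every knockout library was above every control, which held for 9.06% of all genes, and in 0 of the 33 was every knockout library below, against 8.23%. An unadjusted p under 0.05 with a higher knockout level was seen for 11 of the 33 (33.3%) in DESeq2, against 6.51% of all genes, and with a lower level for 1, Il1b, against 5.03%. The members come from the same 6 libraries and are not independent replicates, so these shares describe the list and carry no test.

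**Figure D2:**
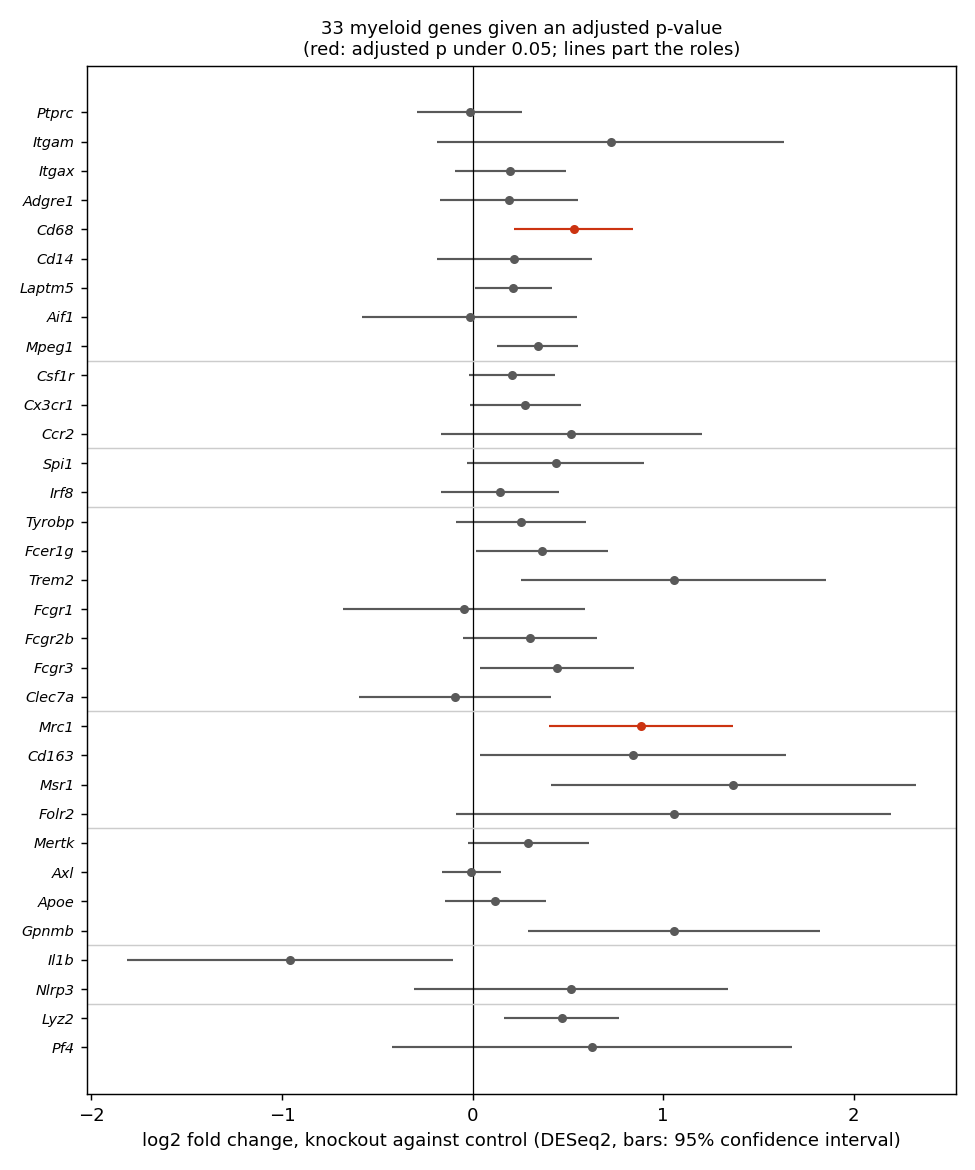
Log2 fold change of knockout against control with its 95% confidence interval (DESeq2) for the 33 genes given an adjusted p-value, ordered by role from surface identity at the top to secreted proteins at the bottom. Mrc1 and Cd68, in red, passed an adjusted p of 0.05, and 27 of the 33 points lie to the right of 0.

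Among the genes of lineage and surface identity, 1 of 9 rose, Cd68, and 0 fell, where 1.53% of all genes rose and 0.657% fell. Ptprc, which encodes the pan-leukocyte phosphatase CD45, stood at 576, 501 and 542 normalized counts in controls and 589, 487 and 525 in knockouts. The groups overlapped fully, and the log2 fold change of -0.02 had a 95% confidence interval of -0.29 to 0.26 (DESeq2 adjusted p = 0.99; -0.09 without knockout replicate 1). Adgre1 stood at 530, 355 and 426 in controls and 572, 440 and 483 in knockouts, again with overlap (0.19 ± 0.19, adjusted p = 0.814; 0.08 without knockout replicate 1). Mpeg1, which encodes perforin-2 of phagocytes, stood at 2446, 2594 and 2518 in controls and 3440, 2706 and 3431 in knockouts. Its groups did not overlap, but the log2 fold change of 0.34 ± 0.11 missed the threshold (adjusted p = 0.0672). Without knockout replicate 2 Mpeg1 passed (0.45, adjusted p = 1.94e-05). Laptm5 (0.21 ± 0.10) and the CD11b gene Itgam (0.72 ± 0.46) also had groups that did not overlap and did not pass. Itgax, Cd14, the endotoxin co-receptor, and Aif1, an actin-binding protein of macrophages, had log2 fold changes of 0.20, 0.22 and -0.02 with overlapping groups. Without knockout replicate 1 these were 0.09, 0.08 and -0.23, that of Laptm5 was 0.14, and the median of the 9 genes went from 0.21 to 0.09. Itgam shares exon sequence with an annotated gene on the same strand, so its count is uncertain.

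**Figure D3:**
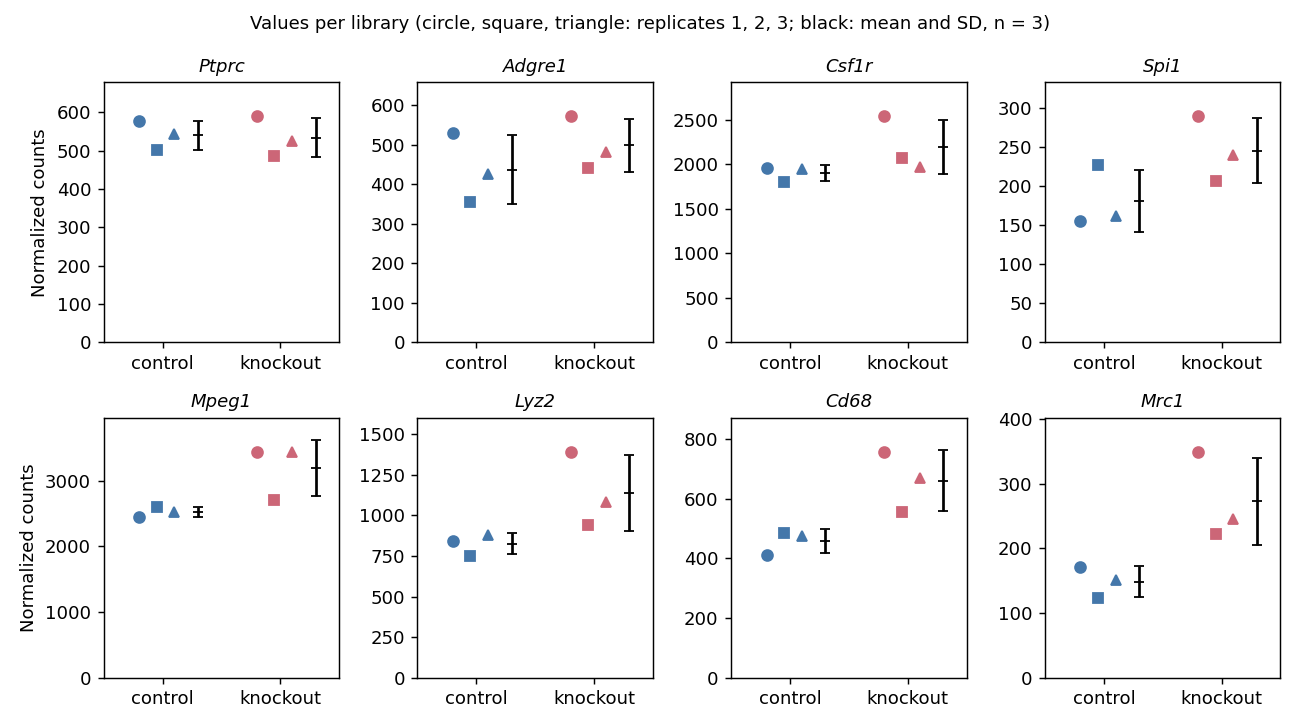
Normalized counts in each library for the defining genes other than Apoe, whose groups overlap, and for Mpeg1, on axes that start at 0. The symbol gives the replicate, and black bars show the mean and SD of 3 libraries. The genotypes overlap for Ptprc, Adgre1 and Spi1, and every knockout library lies above every control for Csf1r, Mpeg1, Lyz2, Cd68 and Mrc1.

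None of the 3 receptors for growth factors and chemokines passed. Csf1r stood at 1966, 1804 and 1946 normalized counts in controls and 2542, 2077 and 1973 in knockouts, with the lowest knockout just above the highest control (0.21 ± 0.11, DESeq2 adjusted p = 0.51; 0.09 without knockout replicate 1). Cx3cr1, the fractalkine receptor of resident macrophages and monocytes, ran from 526 to 700 in controls and from 662 to 790 in knockouts (0.28 ± 0.15, adjusted p = 0.479). Ccr2, the receptor that brings monocytes out of the blood, ran from 79.3 to 134 in controls and from 86.6 to 195 in knockouts (0.52 ± 0.35, adjusted p = 0.644; 0.31 without knockout replicate 1). Csf1r and Cx3cr1 share exon sequence with genes on the opposite strand, and the strand setting of the counting is not given in the sources used here, so both counts are uncertain.

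The transcription factor genes did not pass either. Spi1 stood at 155, 227 and 161 normalized counts in controls and 289, 206 and 239 in knockouts, with overlapping groups (0.44 ± 0.24, DESeq2 adjusted p = 0.487). Irf8, which directs monocyte and dendritic cell development, ran from 335 to 405 in controls and from 368 to 417 in knockouts (0.14 ± 0.16, adjusted p = 0.843).

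Of the 8 Fc receptors, lectins and their adaptors, 7 were given an adjusted p-value and 0 passed. The largest fold change among these 7 was that of Trem2, a lipid-sensing receptor that signals through the adaptor Tyrobp. It stood at 45.6, 44.2 and 21.2 normalized counts in controls and 85.0, 80.4 and 65.9 in knockouts, without overlap (1.06 ± 0.41, DESeq2 adjusted p = 0.188). The groups were also apart for Fcgr3, an activating Fc receptor (0.44 ± 0.21, adjusted p = 0.357; 0.26 without knockout replicate 1). Fcer1g (0.36), Tyrobp (0.25) and the inhibitory receptor Fcgr2b (0.30) had positive log2 fold changes with overlapping groups, and those of the high-affinity receptor Fcgr1 and the beta-glucan receptor Clec7a, annotated as a polymorphic pseudogene, were -0.05 and -0.09, the last being -0.04 without knockout replicate 1. Fcer1g passed without control replicate 3 (0.54, adjusted p = 0.0325). Clec4n had only 4 to 26 counts per library, the knockout libraries all above the controls. Fcgr2b shares exon sequence with a gene on the opposite strand, and Fcgr2b and Fcgr3 are similar paralogs, so their counts are uncertain.

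The scavenger receptors of resident macrophages had the highest median log2 fold change of the 8 role groups, 0.97 over the 4 genes given an adjusted p-value against -0.01 over all genes. Of the 4, Mrc1 alone rose, where 1.53% of all genes did; without knockout replicate 1 the median was 0.76 and 0 of the 4 passed. Msr1, the class A scavenger receptor, stood at 17.9, 26.9 and 19.1 normalized counts in controls and 77.4, 49.5 and 37.9 in knockouts. Its groups were apart, with a log2 fold change of 1.37 ± 0.49 (DESeq2 adjusted p = 0.128). Cd163, the haemoglobin scavenger receptor, stood at 53.6, 25.0 and 53.0 in controls and 77.4, 63.9 and 93.8 in knockouts, also apart (0.84 ± 0.41, adjusted p = 0.394). The folate receptor gene Folr2 ran from 13.9 to 25.5 in controls and from 20.0 to 66.1 in knockouts (1.05 ± 0.58, adjusted p = 0.503; 0.60 without knockout replicate 1), and it shares exon sequence with a gene on the opposite strand. Marco, a scavenger receptor of liver and marginal zone macrophages, had 0, 0 and 4 counts in controls and 106, 0 and 2 in knockouts. Its signal thus lay in knockout replicate 1 alone, and DESeq2 gave it no p-value because of that count.

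Genes for the handling of dying cells and lipid did not pass, 0 of 4. Apoe stood at 19162, 21604 and 18122 normalized counts in controls and 26838, 19235 and 17906 in knockouts, with only knockout replicate 1 above the controls (0.12 ± 0.14, DESeq2 adjusted p = 0.851); without that library the value was -0.08. Of the 2 receptors that bind dying cells through bridging ligands, Mertk ran from 439 to 583 in controls and from 605 to 743 in knockouts without overlap (0.29 ± 0.16, adjusted p = 0.501). Axl ran from 3477 to 3898 and from 3581 to 3728, a log2 fold change of -0.01 with an interval of -0.16 to 0.15, which was -0.0131 without knockout replicate 1 and 0.000304 under total-count scaling. Gpnmb, a glycoprotein of lipid-laden macrophages, stood at 109, 65.3 and 46.7 in controls and 176, 90.8 and 194 in knockouts (1.06 ± 0.39, adjusted p = 0.154). It passed without control replicate 1 (1.45, adjusted p = 0.0347).

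The 5 cytokine and inflammasome genes were low, 2 were given an adjusted p-value and neither passed. Il1b, the main interleukin of activated macrophages, stood at 73.4, 132 and 57.3 normalized counts in controls and 60.4, 30.9 and 43.9 in knockouts. It had the most negative log2 fold change of the 33 genes, -0.96 ± 0.44, with overlapping groups (DESeq2 adjusted p = 0.337; -1.23 without knockout replicate 1), and it shares exon sequence with an antisense gene. Nlrp3, the sensor of the inflammasome that activates this interleukin, ran from 31.8 to 41.3 in controls and from 41.9 to 71.8 in knockouts (0.51 ± 0.42, adjusted p = 0.746; 0.25 without knockout replicate 1). Of the 6 genes for secreted and granule proteins, 2 were given an adjusted p-value and neither passed. Lyz2, the lysozyme gene of myeloid cells, stood at 841, 753 and 878 in controls and 1393, 938 and 1083 in knockouts. Its groups were apart, and the log2 fold change of 0.47 ± 0.16 had an adjusted p of 0.0858, and was 0.29 (adjusted p = 0.649) without knockout replicate 1. Without knockout replicate 2 Lyz2 passed (0.59, adjusted p = 0.0171). Pf4, a chemokine of platelets and macrophages, ran from 17.0 to 21.8 in controls and from 22.7 to 37.1 in knockouts (0.63 ± 0.54, adjusted p = 0.767).

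Knockout replicate 1 was the highest of the 6 libraries for 24 of the 33 genes (72.7%), against 14.1% of all genes tested. The same library was high in liver transcripts. A list of 7 hepatocyte genes, Alb and Apoa1 among them, summed to 402, 483 and 579 normalized counts in controls and to 84999, 3295 and 425 in knockouts, in replicate order, and 4 of the 5 genes given an adjusted p-value rose, where 1.53% of all genes did, and 1 without knockout replicate 1, where 0.88% of all genes passed in either direction. The 4 genes of Kupffer cells, the macrophages of the liver (Clec4f, Cd5l, Vsig4 and Timd4), summed to 3.97, 0 and 8.49 in controls and to 455, 43.3 and 7.98 in knockouts, and 0 of the 2 given an adjusted p-value passed. Clec4f and Vsig4 were at 0 in every control library and in knockout replicate 3. In knockout replicate 3, the hepatocyte and Kupffer sums lay within the control range. Mrc1 (245) and Cd68 (668) were above every control there, as in each knockout library. In replicate 3, Csf1r (1973) was just above the highest control, Folr2 (20.0) lay within the control range and Apoe (17906) was below every control. The part of the liver transcripts in the members' values was not tested.

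Without knockout replicate 1, 0 of the 33 genes passed in DESeq2, and 0.88% of all genes did. The 14 genes with every knockout library above every control keep that order by construction when 1 knockout library is left out. No further member joined them. Their share stayed at 42.4%, while that of all genes went from 9.06% to 12.1%. Il1b had every remaining knockout library below every control, against 11.3% of all genes. The log2 fold change stayed above 0 for 26 of the 33, with a median of 0.26 against -0.01 over all genes. Among the 27 genes above 0 with all libraries, 23 had a smaller value without this one.

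**Figure D4:**
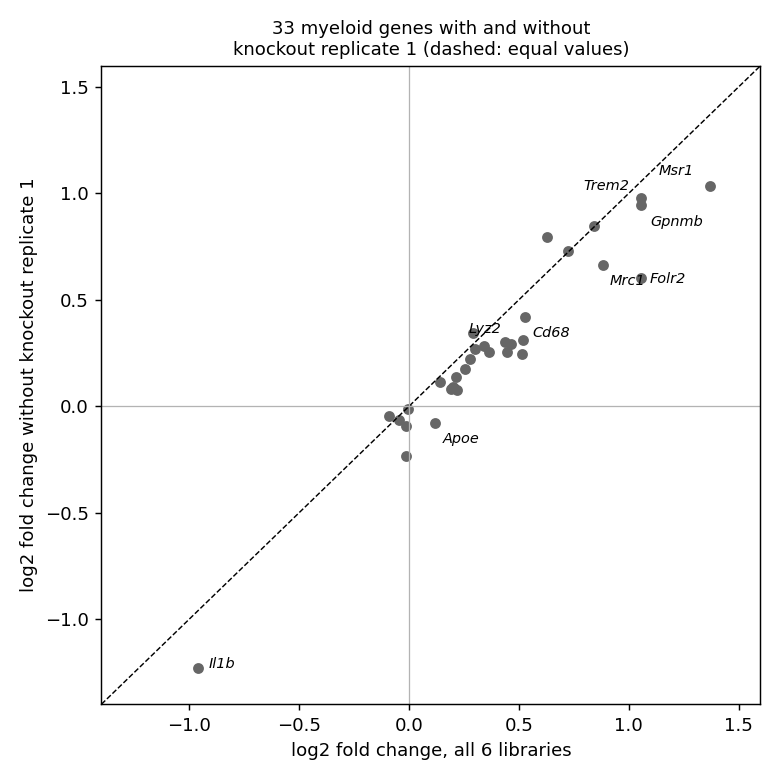
Log2 fold change of the 33 genes with all 6 libraries (horizontal) and without knockout replicate 1 (vertical); the dashed line marks equal values. Msr1, Folr2 and Mrc1 lie below the line, Il1b moves further from 0 and Apoe changes sign.

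Sums of several other lists did not overlap between genotypes, while the beta, delta, endothelial, glial, mesothelial and adipocyte sums did. Of all single genes tested, 9.06% had every knockout library above every control and 8.23% below. No such share was computed for sums. The monocyte sum was apart (5355 to 6256 in controls, 7513 to 7856 in knockouts), as was the interferon response sum (5058 to 5551 and 6117 to 7009). The 8 acinar genes, which encode digestive enzymes of the exocrine pancreas, summed to 599954 to 1213396 normalized counts in controls and 1517192 to 2145028 in knockouts, and 0 of 8 passed. The 8 mesenchymal genes summed to 53144 to 69143 in controls and 97488 to 104359 in knockouts, and 5 of 8 rose, where 1.53% of all genes did. Both sums were higher in every knockout library, replicate 3 included, and no gene of either list was at 0. Lymphocyte sums were lower in every knockout library than in every control: the 7 T cell genes summed to 289 to 351 in controls and 268 to 283 in knockouts, the 6 B cell genes to 1936 to 2099 and 1675 to 1699, and 0 genes of either list passed. The 4 ductal genes summed to 21348 to 23357 in controls and 24764 to 29050 in knockouts, and 1 of 4 rose, but 0 without knockout replicate 1. The 6 alpha cell genes summed to 4064039 to 5861737 in controls and 2991710 to 3688327 in knockouts, and 4 of 6 fell, where 0.657% of all genes did, but 0 without knockout replicate 1. The defining T cell genes Cd3d, Cd3e and Cd3g were at 0 to 26.9 normalized counts. Mast cell genes were near 0, with sums of 0 to 15.9 and Mcpt4 and Fcer1a at 0 in every library. The part of exocrine and stromal tissue in the myeloid values was not tested.

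**Figure D5:**
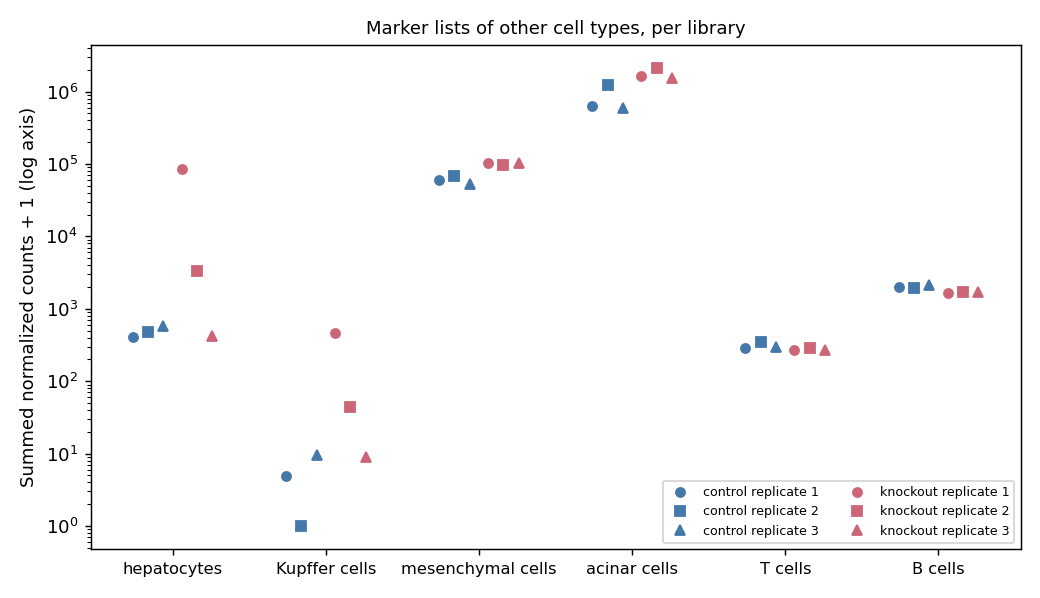
Summed normalized counts plus 1 (log axis) of marker lists of 6 other cell types in each library; colour gives the genotype and symbol the replicate. Hepatocyte and Kupffer genes are high in knockout replicate 1 and to a lesser degree in knockout replicate 2, while acinar and mesenchymal sums are higher in all 3 knockout libraries.

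Other genes of the myeloid program were read from fixed lists. Of 10 genes for C1q and lysosomal proteases, 2 rose and 0 fell, where 1.53% of all genes rose and 0.657% fell. C1qb, a chain of the complement starter C1q, stood at 1414, 1398 and 1292 normalized counts in controls and 1949, 1659 and 1799 in knockouts (0.40 ± 0.10, DESeq2 adjusted p = 0.00854, edgeR 0.203). Its partner chain C1qc rose by 0.44 ± 0.13 on the log2 scale (adjusted p = 0.0314, edgeR 0.291). The third chain, C1qa, singled out after its values were seen, stood at 5872, 6473 and 5138 in controls and 4692, 5666 and 4099 in knockouts (-0.27 ± 0.13, adjusted p = 0.348). C1q is assembled from all 3 chains, and C1qa shares no exon sequence with another annotated gene. C1qb and C1qc did not pass without knockout replicate 1 (adjusted p = 0.182 and 0.41) or knockout replicate 3 (0.0641 and 0.218), and C1qc did not pass without control replicate 1 (0.102) or control replicate 2 (0.164).

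Of 11 genes of tissue-resident macrophages, 8 were given an adjusted p-value, 2 rose and 0 fell, against the same 1.53% and 0.657% of all genes. Siglec1, the sialic acid receptor CD169 of resident macrophages, stood at 51.6, 39.4 and 48.8 normalized counts in controls and 178, 76.3 and 120 in knockouts (1.42 ± 0.38, DESeq2 adjusted p = 0.0142, edgeR 0.231). Lyve1, a hyaluronan receptor of some resident macrophages and of lymphatic endothelium, rose from 1483, 1629 and 1312 to 2477, 1976 and 2764 (0.71 ± 0.14, adjusted p = 8.41e-05, edgeR 0.159). Without knockout replicate 1 Lyve1 still passed (adjusted p = 0.0129) and Siglec1 did not (0.351). Siglec1 was also lost without control replicate 2 (0.135) or knockout replicate 3 (0.0984).

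The remaining myeloid lists held 2 calls, both higher in knockout, where 1.53% of all genes rose. Of 15 genes shared by leukocytes, 1 rose, Nckap1l, a part of the actin-regulating WAVE complex in blood cells (0.52 ± 0.14, DESeq2 adjusted p = 0.0177, edgeR 0.254). Nckap1l did not pass without control replicate 2 (adjusted p = 0.132), knockout replicate 1 (0.258) or knockout replicate 3 (0.111). None of 7 class II genes and none of 6 phagocyte oxidase genes passed, with median log2 fold changes of 0.02 and 0.21, which were -0.14 and 0.13 without knockout replicate 1. Of 8 monocyte genes, 4 were given an adjusted p-value and 1 rose, Ace, which endothelial cells also express (0.40 ± 0.08, adjusted p = 0.000426, edgeR 0.113); of 8 endothelial genes, 1 rose. Of 8 dendritic cell genes 4 were given an adjusted p-value, of 10 neutrophil genes 1, and 0 of these passed; the neutrophil genes Mpo and Elane were at 0 in every library.

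Ligands for myeloid cells were also read. Of 17 growth factors, chemokines and bridging ligands, 10 were given an adjusted p-value, 0 rose and 1 fell, where 0.657% of all genes fell. That gene was Cx3cl1, which encodes fractalkine, the ligand of Cx3cr1. It stood at 4029, 4193 and 3593 normalized counts in controls and 2996, 3038 and 3111 in knockouts, with every knockout below every control (-0.37 ± 0.09, DESeq2 adjusted p = 0.00257, edgeR 0.172; without knockout replicate 1, 0.0718). The 2 ligands of the receptor Csf1r did not pass: the log2 fold changes were 0.26 for Csf1 (adjusted p = 0.285) and 0.38 for Il34 (adjusted p = 0.335). Glucagon itself, Gcg, fell by 0.56 on the log2 scale (adjusted p = 0.00332, edgeR 0.402; 0.144 without knockout replicate 1 and 0.0826 without knockout replicate 3).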

How the data were processed

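Polyadenylated RNA of isolated islets was sequenced, and the authors deposited 1 table of raw read counts per gene, with trimming by cutadapt per the file name. The submitters' processing notes name FastQC, STAR, featureCounts, DESeq2 and mm10; versions and strand setting are not given in the sources used here. All 55536 gene identifiers match GENCODE M21 (GRCm38), the source of coordinates and exon lengths. The group and replicate number in each column name identified its library.

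DESeq2 1.42.0 in R 4.3.3, the tool and design the series text names, was run on genes with at least 10 counts in total, with size factors and genotype as the only term. Adjusted p-values are Benjamini-Hochberg values over all genes given one, and the threshold was 0.05. edgeR 4.0.16 (quasi-likelihood, TMM) was the first alternative. The scripts were tested on simulated data, where both tools recovered the set directions and DESeq2 made false calls more often than its threshold states. The members and lists were chosen with earlier results of these data known. Values per library were to be given for genes past the threshold and for 8 defining genes (Ptprc, Adgre1, Csf1r, Cd68, Spi1, Mrc1, Lyz2 and Apoe), and from each other list for at most 4 genes past the threshold. Values of other members, C1qa, Csf1 and Il34 were added after they were seen.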

Additional observations from a re-analysis of the deposited data

How the results depend on the processing

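In all, 389 genes passed (272 higher, 117 lower). The count was 29 (24 and 5) in edgeR and 614 (419 and 195) at a threshold of 0.1. With 1 library left out it ran from 153, without knockout replicate 1, to 952, without control replicate 3. Of the members, 2 passed. This count was 0 in edgeR, 4 at an adjusted p of 0.1 (Lyz2 and Mpeg1 added), 1 without independent filtering and 1 with counts halved and rounded up, a setting chosen after the data were seen, and 0 to 4 when 1 library was left out. It was 0 without control replicate 2, knockout replicate 1 or knockout replicate 3, and 4 without knockout replicate 2 (Mpeg1 and Lyz2 added). The median log2 fold change of the members stayed between 0.26 and 0.36 in all settings run. TMM factors, total-count scaling, no filter, the stricter filter (10 counts in 3 samples) and no Cook's distance filter kept both calls.

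With the replicate block, 405 genes and 1 member passed, Mrc1 (adjusted p = 0.039), while Cd68 had an adjusted p of 0.154. Of the other genes named, the block lost Ifi44 (0.0905) and Nckap1l (0.0528) and gave C1qa a call (log2 fold change -0.28, adjusted p = 0.0383). Deviations from the group means had correlations of -0.048, -0.059 and 0.010 within the 3 numbers, so the numbers were not taken as pairs.

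Of 630 single results for members under the alternatives, 591 had the same sign and call, 12 lost a call, 6 gained one and 21 changed sign, these last in genes that did not pass. Axl was 0.000304 under total-count scaling. With 1 library left out, log2 fold changes ran from -0.23 to 0.11 for Aif1, -0.0804 to 0.23 for Apoe, -0.048 to 0.0354 for Axl, -0.22 to 0.10 for Clec7a, -0.23 to 0.14 for Fcgr1, -0.0939 to 0.0472 for Ptprc, -0.50 to 0.90 for S100a8, -0.81 to 0.30 for S100a9 and -0.74 to 1.05 for Tnf. Among the 33 members given an adjusted p-value, those that 1 library other than knockout replicate 1 moved by over 1.5 times with no change of sign ran from 0.09 to 0.30 for Itgax, 0.06 to 0.35 for Adgre1, 0.08 to 0.37 for Cd14, 0.18 to 0.39 for Cx3cr1, 0.31 to 0.80 for Ccr2, 0.09 to 0.23 for Irf8, 0.14 to 0.38 for Tyrobp, 0.21 to 0.47 for Fcgr2b, 0.56 to 1.01 for Cd163, 0.17 to 0.36 for Mertk and -1.23 to -0.53 for Il1b. Members without an adjusted p-value moved too. Lyz1, 1.37 over all libraries, was 0.37 without knockout replicate 1 and 0.78 without control replicate 1 or 2. Without control replicate 3, Lyz1 was 5.65, and Marco went from 4.595 to 7.57. The causes were not tested. Counts under about 20 per library limit Clec4n, Tnf, Il6, Lyz1, S100a8 and S100a9.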

Other observations

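Set against Ptprc within each library, Mrc1 stood at 29.6, 24.5 and 27.8 normalized counts per 100 of Ptprc in controls and at 59.3, 45.8 and 46.8 in knockouts. Cd68 stood at 71.3, 96.9 and 87.7 per 100 of Ptprc in controls and at 129, 114 and 127 in knockouts, and Lyz2 at 146, 150.2 and 162 against 236, 193 and 206. Mpeg1 stood at 424, 518 and 465 against 584, 556 and 654, and Csf1r at 341, 360 and 359 against 431, 427 and 376. The groups did not overlap for any of these ratios, and each of these genes was already apart by itself. The ratios were chosen after the values were seen and were not tested. The share of all genes apart when set against Ptprc was not computed. For Adgre1 the ratios were 91.9, 70.9 and 78.7 in controls and 97.1, 90.5 and 92.0 in knockouts, which overlap.

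Of 10 interferon response genes, 10 had a log2 fold change above 0 (median 0.25) and 1 rose, against 1.53% of all genes. This was Ifi44, an interferon-induced protein, which went from 427 ± 47.5 to 611 ± 32.4 normalized counts (SD, n = 3 each; log2 fold change 0.52, DESeq2 adjusted p = 0.0194, edgeR 0.25). Ifi44 did not pass without control replicate 1 (adjusted p = 0.0583), control replicate 2 (0.107), knockout replicate 1 (0.251) or knockout replicate 3 (0.0997).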
